A study of Homo sapiens with 24 samples.

Results

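The linker histone H1 genes described here are H1-1, H1-2, H1-3, H1-4, H1-5 and H1-10 (earlier symbols HIST1H1A, HIST1H1C, HIST1H1D, HIST1H1E, HIST1H1B and H1FX). They were chosen by name, and their probes were found by the RefSeq accession that the array design gives for each probe. Each of the 6 genes had exactly 1 probe on each array version, so the family made up 6 of 50599 probes at 24 h and 6 of 58201 probes at 48 h, or 6 of the 20992 and 22439 genes that could be named. All 6 passed the filter on dim probes at both time points, as did 43967 of all probes at 24 h and 40875 at 48 h.

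Cells of LNCaP, a long-used line from a human prostate cancer, were electroporated with si-A1, an siRNA against the long non-coding RNA TAPIR-1, with si-A2, an siRNA against the long non-coding RNA TAPIR-2, or with a scrambled siRNA (si-SCRL), and all groups carried an siRNA. Total RNA was taken from 4 replicates of each siRNA at 24 h and at 48 h and labelled with 1 dye on Agilent arrays. The 24 h and 48 h samples were hybridised to different versions of the array, so time and version cannot be told apart. On these arrays each transcript was targeted by 1 siRNA in 1 cell line, so that an effect of the transcript and an effect of the siRNA sequence cannot be told apart either.

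The 48 h si-A2 replicate 2 array was dim and was left out: its median processed intensity was 13.9, against 20.4 to 32.2 on the other 48 h arrays and 24.4 to 57.2 on the 24 h arrays. A probe of TAPIR-2 read 4.81 to 5.25 (log2 normalized intensity) in si-SCRL at 24 h, 4.20 to 4.94 in si-A1 and 3.12 to 4.71 in si-A2. The si-A2 arrays thus lay below all si-SCRL arrays at 24 h, whereas at 48 h the same probe read 4.01 to 5.41 in si-SCRL and 3.83 to 5.62 in si-A2, and the groups overlapped. A second TAPIR-2 probe at 48 h did not rise well above background on a single array, and no probe could be matched to TAPIR-1 by accession, so its knockdown was not checked here. The luminal prostate markers KLK2, KLK3, KRT8 and KRT18 each had a probe well above background on every array, and the basal keratin KRT5 stayed below the threshold at both time points. Of the other markers, the basal keratin KRT14 had a probe well above background on 10 of 12 arrays at 24 h and on 10 of 11 at 48 h, and the basal factor TP63 on 7 of 12 and 1 of 11. The leukocyte gene CD3E and 2 of the 5 probes of PTPRC were well above background on every array, while the fibroblast collagens COL1A1 and COL3A1 were so on at most 3 arrays, and their part in the results was not tested.

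Linker histones bind the nucleosome where DNA enters and leaves it and the linker DNA between nucleosomes, and they help to compact chromatin. H1-1 to H1-5 are replication-dependent genes without introns that lie among core histone genes on chromosome 6, are transcribed mainly in S phase and end in a stem-loop in place of a poly(A) tail. H1-10 lies alone on chromosome 3 and is a replication-independent variant with polyadenylated mRNA. Whether the labelling started from poly(A), and the part of this in the values of the replication-dependent members, was not tested.

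On GRCh38.p14, RefSeq places H1-1 at chr6:26017032-26017787, H1-2 at chr6:26055740-26056470, H1-4 at chr6:26156329-26157115 and H1-3 at chr6:26234212-26234987. H1-5 lies apart from these at chr6:27866792-27867588, and H1-10 lies at chr3:129314771-129316286. The stretch just before the annotated start of each member is printed here to show which promoter elements the members have in common. Capitals mark AAACACA (the H1 box), CCAAT and TATAAA on either strand, and all sequences are from RefSeq on GRCh38.p14 and run 5′ to 3′ along the strand of the gene.
H1-2 (chr6:26056491-26056595, minus strand): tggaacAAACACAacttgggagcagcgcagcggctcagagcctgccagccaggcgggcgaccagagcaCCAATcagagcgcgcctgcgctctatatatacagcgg
H1-3 (chr6:26235008-26235112, minus strand): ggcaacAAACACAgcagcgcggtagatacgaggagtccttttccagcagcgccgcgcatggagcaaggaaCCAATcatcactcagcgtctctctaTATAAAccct
H1-4 (chr6:26156204-26156308, plus strand): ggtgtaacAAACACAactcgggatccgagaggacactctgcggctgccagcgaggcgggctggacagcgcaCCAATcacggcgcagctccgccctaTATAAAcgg
H1-5 (chr6:27867609-27867713, minus strand): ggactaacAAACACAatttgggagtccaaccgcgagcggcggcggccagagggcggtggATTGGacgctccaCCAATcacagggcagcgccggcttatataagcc
H1-1 (chr6:26017808-26017912, minus strand): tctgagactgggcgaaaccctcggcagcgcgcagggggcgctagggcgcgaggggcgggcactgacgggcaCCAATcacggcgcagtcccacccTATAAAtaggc
H1-10 (chr3:129316307-129316411, minus strand): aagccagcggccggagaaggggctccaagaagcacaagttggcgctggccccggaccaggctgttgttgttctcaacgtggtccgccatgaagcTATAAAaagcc

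In H1-2, H1-3, H1-4 and H1-5 the AAACACA motif began 119, 119, 117 and 117 bases before the start and read along the gene's strand. H1-5 held another copy 226 bases before the start, and H1-2 held a copy on the opposite strand at 242. H1-1 held the motif only on the opposite strand, 183 bases before the start, and H1-10 held none in the 300 bases searched. CCAAT began 53 to 57 bases before the start in the 5 members on chromosome 6 and had no match in H1-10. TATAAA matched in H1-1, H1-3, H1-4 and H1-10, at 29 to 31 bases, and did not match in H1-2 and H1-5.

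The same motifs were counted in all promoters of 300 bases, from 250 before to 50 after the start. AAACACA on either strand occurred in 5 of the 6 members, in 5.64% of 35116 promoters and in 4.84% of the 62 replication-dependent core histone promoters. On the gene's strand and 110 to 130 bases before the start, a window chosen after the positions had been seen, it occurred in 4 of the 6 members, in 93 of all promoters (0.265%) and in no core histone promoter. CCAAT occurred in 5 members, 34.6% of all promoters and 83.9% of the core histone promoters, and TATAAA in 4 members, 11.5% and 67.7%. TTTGAA, the core of the cell cycle homology region, matched only in H1-5 among the members, 177 bases before the start on the opposite strand, against 15.2% of all promoters and 38.7% of the core histone promoters. The E2F forms TTTGGCGC and TTTCGCGC matched in no member. TTTGGCGC occurred in 0.652% of all promoters and in no core histone promoter, and TTTCGCGC in 0.515% of all promoters and in 13 of the 62 core histone promoters. A match says only that these letters stand in the window.

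At 24 h, H1-5 was the member with the largest difference from the control after either siRNA, and 5 of the 6 members lay below every control array. The values are log2 processed intensities after quantile normalization between arrays. They are read between groups for 1 probe and not between probes. H1-5, a main somatic H1 of dividing cells, read 11.24, 11.52, 12.51 and 10.91 in si-SCRL replicates 1 to 4, 8.32, 7.998, 8.05 and 7.89 in si-A1, and 8.44, 7.41, 7.44 and 7.73 in si-A2. Every knockdown array lay more than 2 log2 units below every control array.

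H1-4, another replication-dependent H1 that is common in somatic cells, read 12.68, 12.88, 13.81 and 12.28 in si-SCRL, 11.49, 11.35, 11.40 and 11.16 in si-A1, and 11.80, 11.21, 11.21 and 11.14 in si-A2. H1-2, the remaining subtype that is common in somatic cells, read 12.88, 12.69, 13.32 and 12.40 in si-SCRL, 11.63, 11.52, 11.90 and 11.39 in si-A1, and 11.74, 11.55, 11.74 and 11.07 in si-A2. H1-3 read 9.38, 9.06, 9.94 and 8.78 in si-SCRL, 8.42, 8.62, 8.52 and 8.68 in si-A1, and 8.61, 8.48, 8.52 and 7.92 in si-A2. In these 3 members no knockdown array reached the lowest control array, and for H1-3 the gap to the si-A1 arrays was small beside the spread of the controls.

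H1-10, the replication-independent variant, read 10.40, 10.38, 10.42 and 10.22 in si-SCRL, 9.94, 9.81, 9.91 and 9.76 in si-A1, and 9.79, 9.46, 9.58 and 9.40 in si-A2, with little spread within a group. H1-1, a subtype of restricted expression, read 4.79, 4.42, 5.17 and 4.14 in si-SCRL, 4.50, 4.06, 4.32 and 4.87 in si-A1, and 4.63, 4.39, 4.72 and 4.59 in si-A2. Its groups overlapped throughout, and it was a dim probe that was well above background on 4 si-SCRL, 3 si-A1 and 3 si-A2 arrays. The si-SCRL replicate 3 array was the highest of the 12 arrays for all 6 members after normalization. It was also the dimmest of the 12, with a median processed intensity of 24.4 and 58.5% of spots well above background. Before normalization it was not the highest control for any member. For H1-5 its processed intensity was 3359, against 3740 in si-SCRL replicate 2.

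**Figure D1:**
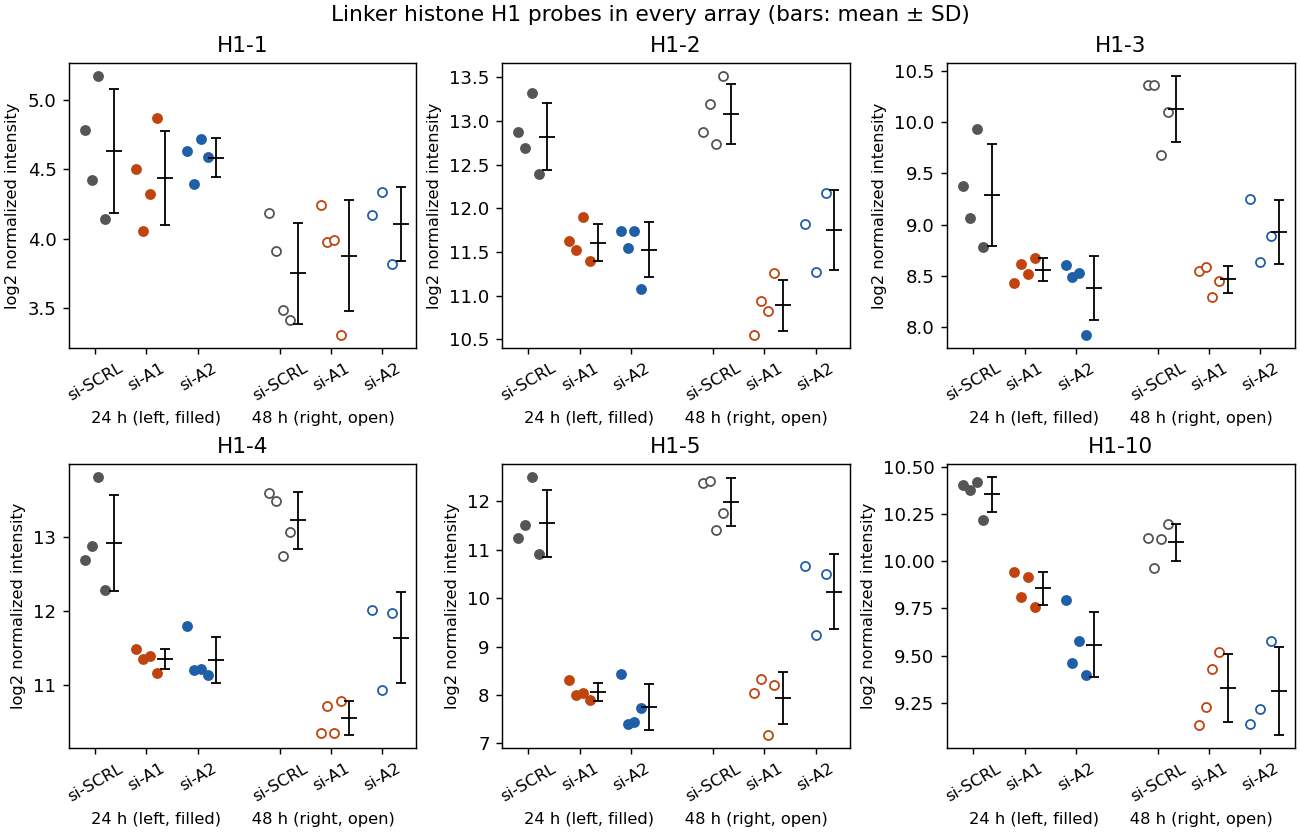
Log2 normalized intensity of each linker histone probe (vertical axis) on every array, by siRNA, with 24 h as filled and 48 h as open circles and the mean ± SD beside each group (n = 4, and n = 3 for si-A2 at 48 h). At 24 h H1-5 lies at 10.91 to 12.51 in the controls and at 7.41 to 8.44 after either siRNA, and H1-1 overlaps between the groups.

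A member was called when limma's adjusted p, taken over all probes tested, was below 0.01 and the log2 difference was at least 0.5. With si-A1 at 24 h 1 of 6 members was called lower, against 1.07% of all probes tested, and with si-A2 2 of 6, against 0.882%. Of all probes 0.0887% and 0.0933% were called higher, and no member was. Every knockdown array lay below every control array for 5 of 6 members with each siRNA, which held for 5.44% of all probes with si-A1 and 4.41% with si-A2. Both comparisons used the same si-SCRL arrays.

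H1-5 fell by 3.48 (SE 0.34, 95% interval -4.22 to -2.74, limma adjusted p = 0.000295) on the log2 scale with si-A1, which is 11.2-fold. With si-A2 it fell by 3.79 (SE 0.34, -4.54 to -3.05, adjusted p = 0.000155), which is 13.9-fold. H1-10 fell by 0.80 (SE 0.12, -1.07 to -0.53, adjusted p = 0.00632) with si-A2. That call was lost with 75th percentile scaling (limma adjusted p = 0.0173) and without 11 of the 12 arrays in turn, at differences of -0.83 to -0.74, and was kept without si-A2 replicate 1. With si-A1 H1-10 differed by -0.50 (SE 0.12, adjusted p = 0.0706).

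The other members were not called here. The study's own table for si-A1 at 24 h lists H1-4 and H1-2 as lower, at an adjusted p of at most 0.01. Why the calls differ was not tested. The differences of H1-4 were -1.56 (SE 0.29, adjusted p = 0.0171) with si-A1 and -1.57 (SE 0.29, adjusted p = 0.0195) with si-A2. The differences of H1-2 were -1.21 (SE 0.23, adjusted p = 0.0171) and -1.30 (SE 0.23, adjusted p = 0.0135), and those of H1-3 were -0.73 (SE 0.24, adjusted p = 0.208) and -0.91 (SE 0.24, adjusted p = 0.116). H1-1 differed by -0.19 (95% interval -0.70 to 0.31) and -0.05 (-0.55 to 0.46). Without si-SCRL replicate 3 H1-4 was called with both siRNAs, at -1.22 (limma adjusted p = 0.00470) and -1.23 (limma adjusted p = 0.00459), and the difference of H1-5 was -3.12 and -3.43. With normexp background correction H1-2 and H1-4 were also called, which gave 3 members with si-A1 and 4 with si-A2.

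The 5 members other than H1-1 lay below the controls on both slides. For H1-5 with si-A1 the mean difference was -3.22 on slide 1 and -3.74 on slide 2, and with si-A2 it was -3.46 and -4.13. For H1-4 it was -1.36 and -1.76 with si-A1 and -1.28 and -1.87 with si-A2, with 2 arrays of each group on each slide. H1-10 differed by -0.51 and -0.49 with si-A1 and by -0.76 and -0.83 with si-A2. The arrays hold RNA of whole cultures, so fewer cells that express a histone gene and less histone mRNA per cell cannot be told apart.

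The probes of the 6 members did not change by the same amount at 24 h. For each of the 15 pairs of members and each siRNA, the log2 difference between the 2 members within an array was compared between knockdown and control arrays with an exact two-sided permutation test, and p-values were adjusted over the 30 tests. With 4 arrays against 4 the smallest p such a test can give is 0.0286, which became an adjusted p of 0.0343. Of the 30 tests 25 reached it, 12 with si-A1 and 13 with si-A2. These include pairs with H1-1, whose dim probe was well above background on 3 of 4 arrays with each siRNA. A fall could hardly show in that probe, so the pairs with H1-1 say little on unequal change. H1-5 differed from each of the other 5 members with both siRNAs. The change of H1-4 minus that of H1-5 was 1.92 log2 units with si-A1 and 2.22 with si-A2, and the change of H1-5 minus that of H1-10 was -2.98 and -2.995 (exact permutation test, adjusted p = 0.0343 each).

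Pairs that missed the threshold were few. H1-2 and H1-4 differed in their change by 0.35 (exact permutation test, adjusted p = 0.132) with si-A1 and by 0.27 (adjusted p = 0.306, exact permutation test) with si-A2. H1-3 and H1-10 differed by -0.23 and -0.11 (exact permutation test, adjusted p = 0.414 and 0.743). H1-1 and H1-10 differed by 0.31 with si-A1 (exact permutation test, adjusted p = 0.306) and by 0.75 with si-A2 (exact permutation test, adjusted p = 0.0343). In order of the size of the change at 24 h the members were thus H1-5, then H1-4 and H1-2, which did not separate, then H1-3 and H1-10, which did not separate, with H1-1 last and apart from H1-10 only with si-A2. The place of H1-1 is limited by its dim probe. A ratio within an array shows unequal change and not which of the 2 members changed. The order is one of probes, and how closely each probe follows its mRNA was not tested.

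Between the 2 siRNAs no member was called at 24 h, where 0.132% of all probes were called lower and 0.287% higher in si-A2 than in si-A1. At an unadjusted limma p below 0.05 1 of 6 members differed, against 11.5% of all probes. It was H1-10, which read 0.30 lower in si-A2 (95% interval -0.57 to -0.03, limma adjusted p = 0.374). The interval for H1-5 ran from -1.05 to 0.43 and that for H1-4 from -0.65 to 0.63. Differences between the siRNAs within these ranges thus remain possible with 4 arrays a group.

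**Figure D2:**
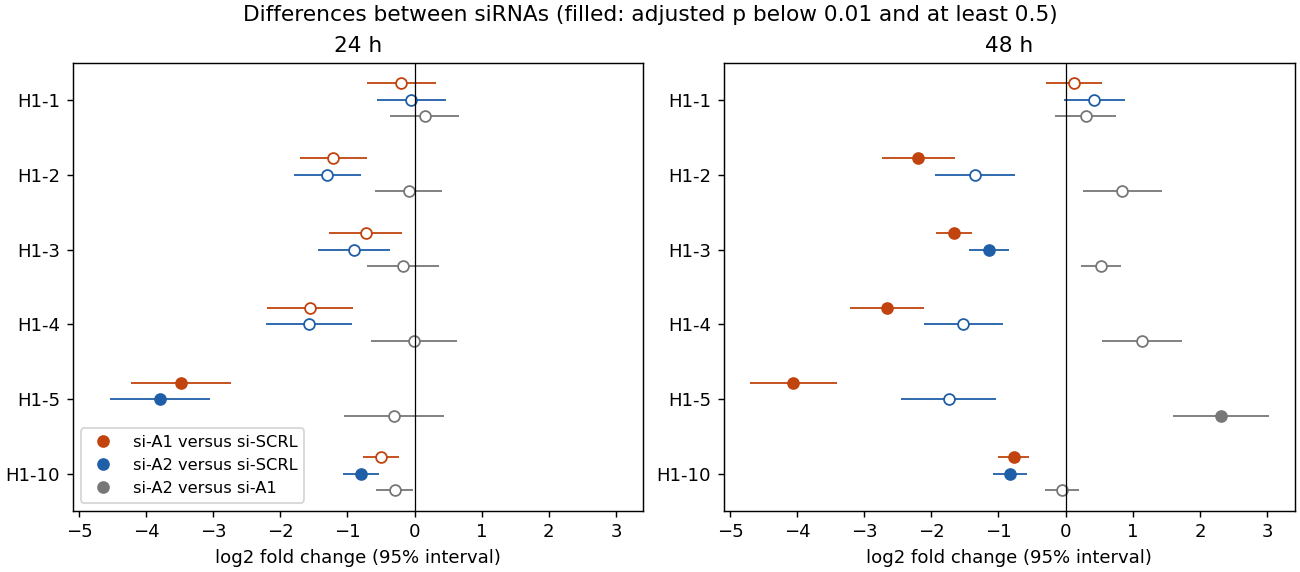
Log2 fold change of each linker histone probe with its 95% interval (horizontal axis) at 24 h and 48 h, for each siRNA against si-SCRL and for si-A2 against si-A1, with called differences as filled points. At 24 h the 2 siRNAs lie close together for each member, and at 48 h H1-5 lies at -4.05 with si-A1 and -1.74 with si-A2.

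At 48 h, 5 members fell with si-A1, and the same 5 lay below every control array with si-A2, 2 of them called. H1-5 read 12.37, 12.42, 11.40 and 11.77 in si-SCRL replicates 1 to 4, 8.04, 8.34, 7.16 and 8.20 in si-A1, and 10.66, 9.24 and 10.49 in si-A2 replicates 1, 3 and 4. The si-A2 arrays lay between the other groups without overlap. H1-4 read 13.59, 13.48, 12.75 and 13.07 in si-SCRL, 10.36, 10.72, 10.35 and 10.79 in si-A1, and 12.01, 10.93 and 11.97 in si-A2. H1-2 read 12.87, 13.20, 12.74 and 13.52 in si-SCRL, 10.55, 10.93, 10.82 and 11.26 in si-A1, and 11.82, 11.27 and 12.18 in si-A2. These 2 members showed the same order of groups, with a narrow gap between si-A1 and the lowest si-A2 array. The share of all probes with this order was not counted.

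H1-3 read 10.37, 10.36, 9.68 and 10.10 in si-SCRL, 8.54, 8.58, 8.29 and 8.44 in si-A1, and 9.25, 8.63 and 8.89 in si-A2. H1-10 read 10.12, 9.97, 10.12 and 10.20 in si-SCRL, 9.13, 9.23, 9.43 and 9.52 in si-A1, and 9.14, 9.22 and 9.58 in si-A2, so that its si-A1 and si-A2 arrays overlapped while both lay below the controls. H1-1 read 4.19, 3.91, 3.49 and 3.42 in si-SCRL, 4.24, 3.98, 3.99 and 3.31 in si-A1, and 4.17, 4.34 and 3.82 in si-A2, again with overlap between all groups. Its probe was well above background on 8 of these 11 arrays, 3 in si-SCRL, 3 in si-A1 and 2 in si-A2.

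With si-A1 at 48 h 5 of 6 members were called lower, against 4.66% of all probes tested, while 2.96% of all probes were called higher. H1-5 fell by 4.05 (SE 0.29, 95% interval -4.71 to -3.40, limma adjusted p = 4.14e-05), or 16.6-fold. H1-4 fell by 2.66 (SE 0.24, adjusted p = 0.000134) and H1-2 fell by 2.19 (SE 0.24, adjusted p = 0.000400). H1-3 fell by 1.66 (SE 0.12, adjusted p = 4.42e-05) and H1-10 fell by 0.77 (SE 0.10, adjusted p = 0.00109). H1-1 differed by 0.13 (95% interval -0.29 to 0.54). On slide 1 H1-5 differed by -4.20 and on slide 2 by -3.90. Leaving out any 1 of the 11 arrays kept 5 members called.

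With si-A2 at 48 h 2 of 6 members were called lower, against 0.582% of all probes, and 0.113% of all probes were called higher. H1-3 fell by 1.14 (SE 0.13, 95% interval -1.44 to -0.84, adjusted p = 0.00443) and H1-10 fell by 0.83 (SE 0.11, -1.08 to -0.58, adjusted p = 0.00681). The other 3 differed more and were not called: H1-5 by -1.74 (SE 0.32, adjusted p = 0.0200), H1-4 by -1.52 (SE 0.26, adjusted p = 0.0173) and H1-2 by -1.35 (SE 0.26, adjusted p = 0.0260). H1-1 differed by 0.43 (95% interval -0.02 to 0.88). All arrays of the knockdown lay below all controls for 5 members with each siRNA at 48 h, as they did for 9.34% of all probes with si-A1 and for 7.41% with si-A2.

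The si-A2 calls at 48 h rested on the model. With the replicate number as a block, neither H1-3 (limma adjusted p = 0.0110) nor H1-10 (limma adjusted p = 0.0162) was called and the count was 0, while the 5 calls with si-A1 were kept. With 1 array left out the si-A2 count was 0 or 1: H1-10 was lost without any 1 of the 11 arrays, and H1-3 was lost without si-SCRL replicate 1, 2 or 4, si-A1 replicate 2 or any of the 3 si-A2 arrays. With normexp background correction 5 members were called with si-A2. When the dim array was kept, no member was called at 48 h with si-A1 or si-A2, although H1-5 differed by -4.08 with si-A1 (limma adjusted p = 0.0492).

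H1-5 was higher in si-A2 than in si-A1 at 48 h, by 2.31 (SE 0.32, 95% interval 1.60 to 3.02, limma adjusted p = 0.00387), or 4.96-fold, and it was the only member called. Of all probes 1.4% were called higher and 0.697% lower in this comparison. H1-4 read 1.14 higher (SE 0.26, adjusted p = 0.0351), H1-2 0.84 (SE 0.26, adjusted p = 0.0964) and H1-3 0.52 higher (SE 0.13, adjusted p = 0.0471). H1-10 read -0.05 (95% interval -0.30 to 0.19). At an unadjusted limma p below 0.05 4 of 6 members differed, against 20.6% of all probes. On slide 1, with 1 si-A2 array, H1-5 differed by 2.47, and on slide 2 by 2.18. The call was lost without si-A1 replicate 1, 2 or 3 or without si-A2 replicate 1 or 4, at differences of 2.02 to 2.33, and with only these 2 groups in the fit (limma adjusted p = 0.0303).

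The change of each effect from 24 h to 48 h was fitted over the probes that both array versions share, and no member was called. In that test 0.134% of probes were called lower and 0.0789% higher for si-A1, and 0.00303% and 0.0425% for si-A2. At an unadjusted limma p below 0.05 1 of 6 members differed for each siRNA, against 14% of all probes for si-A1 and 7.64% for si-A2. The effect of si-A2 on H1-5 was 2.30 log2 units less negative at 48 h (95% interval 1.25 to 3.36, limma adjusted p = 0.110), and the effect of si-A1 on H1-3 was 0.86 units more negative (95% interval -1.45 to -0.27, adjusted p = 0.159). For si-A1 and H1-5 the change was -0.26, with an interval from -1.27 to 0.75.

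H1-4 and H1-5 varied together across arrays also within a group. Over the 12 arrays of 24 h the 5 members other than H1-1 correlated with one another at Pearson r of 0.84 to 0.97, which mostly follows the groups. After the group and slide means were taken out, r between H1-4 and H1-5 was 0.96 at 24 h and 0.90 over the 11 arrays of 48 h, and the range over the pairs of these 5 members was 0.55 to 0.96 at 24 h and 0.66 to 0.91 at 48 h. H1-1 correlated with the other members at 0.46 to 0.72 after this step at 24 h and at -0.83 to -0.39 at 48 h. The points of a pair share their array, its scaling and its RNA, and near-identical coding sequences of H1 genes could let a probe bind more than 1 mRNA, which was not tested.

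**Figure D3:**
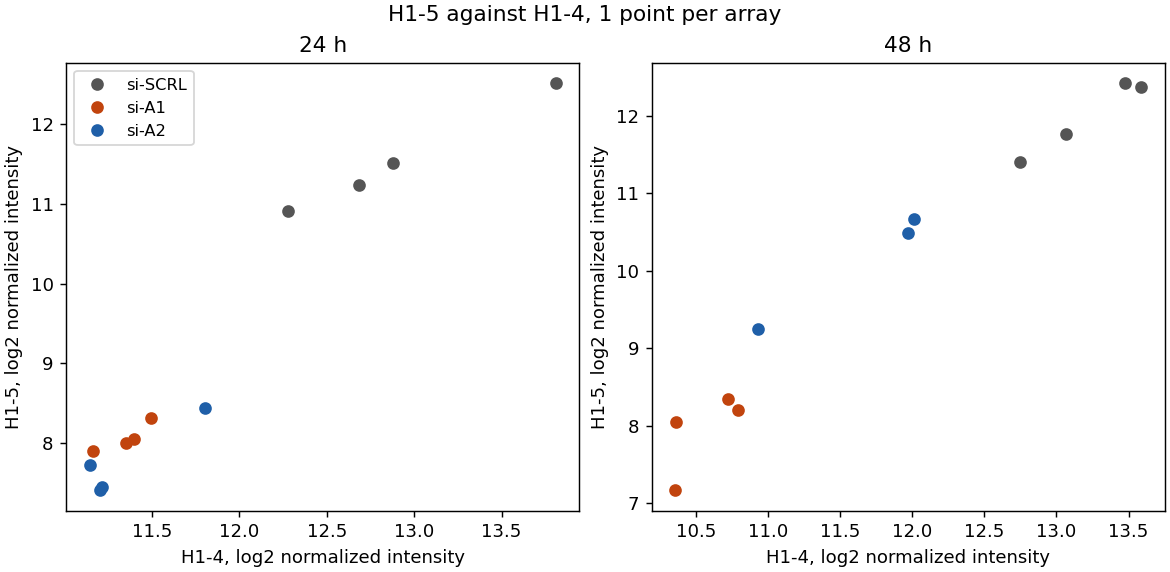
Log2 normalized intensity of H1-5 (vertical axis) against that of H1-4 (horizontal axis), 1 point per array, at 24 h and 48 h. At 24 h the si-A1 and si-A2 arrays fall in 1 region below the controls, and at 48 h the si-A2 arrays lie between si-A1 and si-SCRL.

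Among 19253 genes named through RefSeq, the 5 genes most like H1-5 over the 12 arrays of 24 h were H2A genes: H2AC13 (r = 1.00), H2AC8, H2AC12, H2AC14 and H2AC15 (r = 0.99 each). H1-4 was closest to ZNF430 (r = 0.98), MCM7, a subunit of the replicative helicase (0.98), and PLK1, a mitotic kinase (0.97), followed by IGFLR1 (0.97) and H1-5 (0.97). H1-2 was closest to H2AC6 (0.97), TTK (0.97), EME1 (0.97), MAD2L1 (0.97) and H2AC4 (0.96), of which TTK and MAD2L1 act in the spindle checkpoint. H1-10 was closest to KIF2C, a mitotic kinesin (0.98), and H3C15 and H2AC4 were among its 5 nearest (0.97 each), with PAQR4 (0.98) and NSD3 (0.98). H1-3 was closest to HAUS5 (0.96), ASRGL1 (0.94), CDC7, a kinase that starts replication (0.94), POP7 (0.94) and FAM177B (0.93).

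The dim probe of H1-1 had no histone gene among its 5 nearest, which were OR52E2 (0.92), SEC16B (0.91), LOC100131626 (0.89), ENPP7 (0.88) and PADI4 (0.88). These values describe likeness over 12 arrays and carry no test.

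The replication-dependent core histones, which form the nucleosome core, moved with the linker histones. Of 63 genes 60 were measured at 24 h. With si-A1 41 were called lower, against 1.07% of all probes, and with si-A2 47, against 0.882%. Differences below 0 were found for 57 of the 60 with si-A1 and for all 60 with si-A2. The list had a median log2 fold change of -1.46 with si-A1 and -1.63 with si-A2. The medians were -0.97 and -1.10 over the 6 linker histones and 0.05 over all probes with either siRNA. The largest decreases at 24 h were those of H3C15 (-3.36 with si-A1 and -4.53 with si-A2), H2AC16 (-2.93 and -3.68), H2AC11 (-2.82 and -3.14), H3C2 (-2.71 and -3.05) and H2AC13 (-2.67 and -3.03). Members near 0 included H2BC1, a testis form, at -0.08 with each siRNA. Core histone genes of 1 type are nearly identical, so binding of 1 probe by several mRNAs cannot be told apart from their shared change.

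At 48 h 59 core histones were measured. With si-A1 53 were called lower, against 4.66% of all probes, and H2AC25 rose by 0.61 (limma adjusted p = 0.00187). With si-A2 12 were called lower, against 0.582%. Differences below 0 were found for 57 of the 59 with each siRNA, and the list medians were -2.33 and -1.32. The largest called decreases with si-A2 were those of H2AC11 (-1.81), H2BC7 (-1.74), H2BC11 (-1.51), H2BC5 (-1.48) and H2BC4 (-1.42). The linker histones had medians of -1.93 and -1.24, and all probes of 0.06 and 0.01. Between the siRNAs 7 core histones were called higher in si-A2 at 48 h, against 1.4% of all probes, among them H2AC16 (2.23), H2AC11 (2.07) and H3C7 (1.75). The median of the list was 0.96, beside 0.68 for the linker histones. None of the core histones was called between the siRNAs at 24 h by limma, where 11 of 60 had an unadjusted p below 0.05, against 11.5% of all probes.

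Core histone genes within 25 kb of a member, a list chosen after the values had been seen, were called around members that were not. Fewer of them were called with si-A2 at 48 h. Among all core histones measured, 41 of 60 were called lower with si-A1 and 47 of 60 with si-A2 at 24 h. At 48 h the counts were 53 of 59 and 12 of 59. Whether closeness to a member plays a part was not tested. Around H1-1, itself at -0.19 with si-A1, 4 of the 5 core histone genes were called lower with either siRNA at 24 h. Of all probes 1.07% were so with si-A1 and 0.882% with si-A2. With si-A1 the called genes were H4C1 (-1.65), H4C2 (-1.65), H3C2 (-2.71) and H2AC4 (-1.14), and the median over the 5 was -1.65. H3C1, at 2664 bases from H1-1, was not called (-0.62). Around H1-5 all 4 were called lower with either siRNA at 24 h, with H2AC16 at 994 bases showing the largest difference (-2.93 with si-A1). Around H1-3 6 of 7 were called lower with either siRNA at 24 h, against a difference of -0.73 for H1-3 itself with si-A1. Around H1-4 the only one, H2BC5, was called lower with both siRNAs (-1.35 with si-A1 and -1.58 with si-A2). Around H1-2 3 of 4 were called lower with either siRNA at 24 h, at medians of -1.29 and -1.57, and H2AC4 and H3C2 among them also lay near H1-1. With si-A1 at 48 h all neighbours of H1-1 (5), H1-2 (4), H1-3 (7), H1-4 (1) and H1-5 (4) were called lower, against 4.66% of all probes. With si-A2 at 48 h the calls were 0 of 5, 2 of 4, 1 of 7, 1 of 1 and 0 of 4 in that order, against 0.582%. The medians were -1.19, -1.27, -1.41, -1.48 and -1.37. No core histone gene lay within this distance of H1-10.

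Some genes that make histone mRNA were called lower. Of 15 measured, 2 were called lower with si-A1 at 24 h, against 1.07% of all probes. They were CDK2 (-1.59, limma adjusted p = 0.00524) and CCNE2 (-1.55, adjusted p = 0.000562), the kinase and a cyclin that activate histone transcription. With si-A2 3 were called lower at 24 h, against 0.882%. They were CCNE2 (-1.81), NPAT, the coactivator of replication-dependent histone genes (-1.13, limma adjusted p = 0.00223), and SLBP, which binds the stem-loop of histone mRNA (-0.94, limma adjusted p = 0.00995). The list medians were -0.59 and -0.17.

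At 48 h 6 of these 15 were called lower with si-A1, against 4.66% of all probes, with a list median of -0.48. They were CCNE2 (-2.73), CDK2 (-2.15), CASP8AP2 (-1.20), SLBP (-1.15), ERI1 (-0.97) and ZNF473 (-0.92). CASP8AP2 was near the floor, at 2.85 in si-A1 and well above background on 1 of 4 si-A1 arrays. CASP8AP2 and ZNF473 are parts of the histone locus and processing machinery, and ERI1 is a nuclease that acts on the histone stem-loop. With si-A2 none was called at 48 h by limma, 8 of 15 had an unadjusted p below 0.05, against 19.3% of all probes, and the median was -0.25. CCNE2 (by 1.94), CDK2 (by 1.38) and ZNF473 (by 0.83) were higher in si-A2 than in si-A1 at 48 h. The U7 subunit gene LSM10 stayed within 0.11 of 0 in each comparison with the control.

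Chaperones of H1 and proteins that compete with it on nucleosomes changed less at 24 h. HMGB2, a high mobility group protein that binds where H1 does, was the only one of 15 called. It differed by -2.87 with si-A1 (limma adjusted p = 0.000512) and -2.05 with si-A2 (limma adjusted p = 0.00462). Of all probes 1.07% and 0.882% were called lower, and the list medians were -0.16 and -0.09. With si-A1 at 48 h 9 were called lower, against 4.66% of all probes, with a median of -0.62. Among them were HMGB2 (-2.85), the histone chaperone NASP (-1.36), HMGB1 (-0.91), HMGN2 (-0.88) and SET (-0.69). NASP read low at 48 h, at 3.69 in si-A1 and 5.05 in si-SCRL, against 13.39 and 12.50 at 24 h. Whether the 2 times read the same NASP mRNA was not tested. With si-A2 at 48 h none was called by limma, 8 of 15 had an unadjusted p below 0.05, against the same 19.3% of all probes, and the median was -0.26. HMGN1, HMGA2 and HMGA1 were called in none of these comparisons.

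The germ-line linker histones gave no call. H1-7 read 8.77 ± 0.10 (SD, n = 4) in si-SCRL, 9.20 ± 0.22 in si-A1 and 8.76 ± 0.45 in si-A2 at 24 h, and its differences were 0.44 and -0.01. H1-6 read 4.74 ± 0.49 (SD, n = 4), 4.64 ± 0.07 and 4.75 ± 0.13 at 24 h. The oocyte form H1-8 stayed near background on all 24 h arrays and was not tested at 48 h. It read 1.99 ± 0.45 (SD, n = 4) in si-SCRL, 2.20 ± 0.60 in si-A1 and 3.08 ± 0.46 in si-A2 at 24 h. Its difference with si-A2, 1.09, was the highest of the list and was not called. By limma 1 of these 3 had an unadjusted p below 0.05 with each siRNA at 24 h, as did 13.2% of all probes with si-A1 and 11.9% with si-A2. At 48 h 2 of the 3 were tested, and 1 with si-A1 and 0 with si-A2 had an unadjusted p below 0.05, as did 31.5% and 19.3% of all probes.

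**Figure D4:**
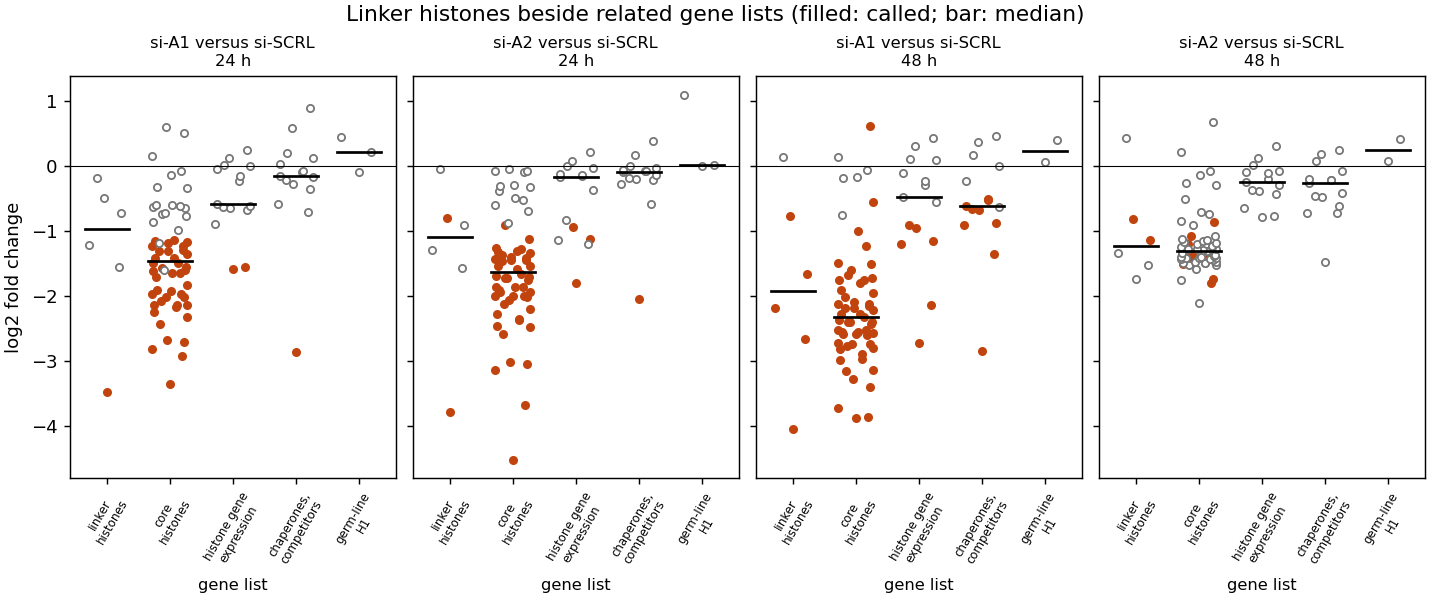
Log2 fold change (vertical axis) of the linker histones and of 4 gene lists in the 4 comparisons with si-SCRL, 1 point per gene, with called genes filled and a bar at the median of each list. The linker and core histone medians lie below those of the other lists in all 4 comparisons, and the core histones lie lower with si-A1 at 48 h (-2.33) than with si-A2 (-1.32).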

How the data were processed

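Total RNA of LNCaP cells was hybridised to 24 Agilent arrays with 1 dye, 12 at 24 h and 12 at 48 h, each time point on 2 slides that held all 3 siRNAs (replicates 1 and 2 on slide 1, replicates 3 and 4 on slide 2). Per the labels the replicates of a group are separate samples, and the study's methods call them biological replicates. Per the file headers the processed intensity of each spot, background-subtracted and detrended, was made by Feature Extraction 11.5.1.1. The authors also deposited log2 values, which are these intensities after quantile normalization. The submitters' processing notes name R 3.4.3 and limma 3.34.8.

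Here the processed intensity was set to missing at spots marked non-uniform or as population outliers, taken to log2, quantile-normalized within a time point and averaged over repeated spots of a probe. Probes above the mean plus 3 SDs of the negative controls on at least 3 arrays were tested. limma 3.58.1 (statmod 1.5.0, R 4.3.3) fitted the 3 siRNA groups of a time point with slide as an added term, and Benjamini-Hochberg adjustment ran over all probes tested. The interquartile-range filter of the study's methods was an alternative, so that every member could be accounted for. The 48 h si-A2 replicate 2 array was left out of all values except where said. No probe of a member lacked a value on any array used.

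Probes were named through RefSeq by accession, 29033 at 24 h and 31104 at 48 h. Every member was named by its 1 probe. From each list, the called genes with the largest differences, at most 5 in each direction and comparison, and those nearest 0 were named, and for each member the 5 genes with the highest Pearson r over the 12 arrays of 24 h. The members and lists were chosen with earlier results of these data known. Precision is limited by how few arrays each group has.

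Whether replicate numbers pair arrays was checked by correlating deviations from group means between groups. At 48 h all 10 same-numbered pairs gave r over 0.1 (0.24 to 0.43, median 0.29). All 10 pairs of the same slide and different number did so too (0.12 to 0.39, median 0.25), and pairs across slides gave -0.43 to -0.14. The check thus cannot tell a pairing by number from a shared slide. The main fits took slide as a term, and the replicate block was an alternative. At 24 h 3 of 12 same-numbered pairs gave r over 0.1 (-0.15 to 0.16), and the numbers were not taken as a pairing.

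Alternatives were 75th percentile scaling, normexp (offset 50) on the median spot and background intensity because no mean signal was at hand, uncorrected intensities, the deposited log2 values, other treatments of slide and replicate, other filters and thresholds, the dim array, and the removal of single arrays. The fit was tested on simulated data. Some marker genes are not reported here.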

Additional observations from a re-analysis of the deposited data

Results flagged for a closer look

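Among 30 groups of 4 arrays examined, 1 held an array far from the others: si-A2 replicate 1 at 24 h read 11.80 for H1-4, where the other 3 arrays of the group lay between 11.14 and 11.21. The gap to the nearest array was 0.896 of the group's range. Chance alone marks about 1 in 20 such groups. The same array was the highest of its group for H1-5 (8.44).

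The effects of the 2 siRNAs on H1-5 at 48 h differed by 2.31 log2 units in limma's direct test (adjusted p = 0.00387). Every si-A2 array lay above every si-A1 array, and the share of all probes for which this held was not counted.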

How the results depend on the processing

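The decrease of H1-5 at 24 h was called with both siRNAs under every alternative run, and no called value of a member turned its direction under any of them. Over all members and alternatives, 1118 values kept their direction and side of the threshold, 59 lost a call, 25 gained one and 28 turned sign, none of which was called. The count of members called was 1 for si-A1 at 24 h, and became 3 with normexp, 3 with no background correction, 3 with the well-above-background filter and 2 with the replicate block. It was 2 for si-A2 at 24 h, and became 4 with normexp and with no background correction, 3 with no slide term, with slide as a random block and with the well-above-background filter, and 1 with 75th percentile scaling, with only the groups compared, with the interquartile range filter and with a minimum difference of 1. It was 5 for si-A1 at 48 h, and became 4 with a minimum difference of 1 and 0 with the dim array kept. It was 2 for si-A2 at 48 h, and became 5 with normexp and with no background correction, 1 with the interquartile range filter, with no filter on dim probes and with a minimum difference of 1, and 0 with no slide term, with the replicate block, with only the groups compared and with the dim array kept. Between the siRNAs at 48 h it was 1, and became 2 with normexp and with no background correction, and 0 with no slide term, with only the groups compared and with the dim array kept. The cause of these shifts was not tested.

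With 1 array left out the counts ran from 1 to 2 (si-A1, 24 h), 1 to 2 (si-A2, 24 h), 5 to 5 (si-A1, 48 h), 0 to 1 (si-A2, 48 h) and 0 to 1 (between the siRNAs, 48 h). The replicate block changed no other call count at 48 h. The counts between the siRNAs at 24 h and for the change over time were 0 throughout. The pairs of members that differed in their change numbered 22 of 30 with 75th percentile scaling, 26 with normexp and 25 with the deposited log2 values.

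Values that turned sign were all near 0 or rested on the dim array. H1-4 between the siRNAs at 24 h became 0.023 with 75th percentile scaling, 0.0018 with normexp and 0.0023 with no background correction, and ran from -0.17 to 0.054 with 1 array left out. H1-2 ran from -0.17 to 0.079 in that comparison and H1-1 from -0.26 to 0.13 with si-A2. At 48 h H1-2 between the siRNAs became -0.063 with the dim array, and H1-10 ran from -0.15 to 0.029. For the change of the si-A2 effect over time, H1-2 and H1-10 became -0.050 and -0.029 with each time point normalized on its own, -0.091 and -0.086 with 75th percentile scaling, and -0.61 and -0.070 with the dim array, where H1-4 became -0.46. With 1 array left out H1-10 ran from -0.069 to 0.10, H1-4 from -0.025 to 0.62 and H1-3 from -0.44 to 0.0014.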
